A study of Mus musculus with 6 samples.

Results

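Progress of a T cell through G1, the phase before DNA replication, is driven by a small set of cyclins and the kinases they activate. The 9 genes described here encode the D-type cyclins (Ccnd1, Ccnd2 and Ccnd3), the E-type cyclins (Ccne1 and Ccne2), the cyclin-dependent kinases of both classes (Cdk4 and Cdk6 for the D cyclins, Cdk2 for the E cyclins) and Skp2, the substrate receptor of a ubiquitin ligase that marks the CDK2 inhibitor p27 for destruction. They were chosen by name, as members of 1 pathway, with earlier results of these data known. All 9 were found among the 11922 genes of the count table and passed the low-count filter.

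The pathway works in sequence. Mitogens and interleukin-2 raise the D cyclins, whose complexes with CDK4 or CDK6 begin to phosphorylate the retinoblastoma protein, and this releases E2F factors that transcribe the E cyclins and many replication genes. Cyclin E with CDK2 then completes the phosphorylation, and SKP2 removes p27 so that CDK2 stays active. In T cells cyclins D2 and D3 are the D cyclins known for use after activation, whereas cyclin D1 is known from adherent cells.

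RNA was sequenced from splenic CD8+ T cells of C57BL6/J mice, purified with magnetic beads against CD8α. Cells were activated for 72 hours with beads carrying antibodies to CD3 and CD28, then washed and expanded for 4 days, with 100 units per ml of recombinant human IL-2 throughout. The vehicle group received water, and the AOA group 0.25 mM aminooxyacetic acid, an inhibitor of enzymes that use the vitamin B6 cofactor pyridoxal 5'-phosphate, from the start to harvest on day 7. There were 3 libraries in each group, and the labels give mouse donors 1, 2 and 3 to both groups, so a replicate number names the mouse. The age of these donors is not given in the labels, each library comes from a mixed culture, and in bulk RNA fewer cells expressing a gene, fewer cells in a given phase of the cycle and less RNA per cell cannot be told apart.

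Counts per library totalled between 12881962 and 21997078. Of 11759 genes tested, 26.2% were called higher with AOA and 26.8% lower, where called means an adjusted p under 0.05 in edgeR's quasi-likelihood test. Vehicle replicate 2 and AOA replicate 1 stood apart from the other libraries of their groups. The chi-square per gene between 2 replicates was 54.7 and 59.4 for pairs with vehicle replicate 2 and 70.1 and 63.5 for pairs with AOA replicate 1, against 9.93 and 10.4 for the remaining vehicle and AOA pairs. SE below is the standard error of a log2 difference. The median log2 fold change of all genes tested was -0.02, and the middle 50% of them lay between -0.59 and 0.54. Levels within a gene are given as CPM, the usual count scaled to library size, here with TMM, and levels of different genes as RPKM, which is CPM per kilobase of the deposited gene length. Gene positions are those of RefSeq on GRCm38.p6, the assembly also known as mm10.

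The 5 analysed markers of CD8 T cells summed to between 2908 and 3737 CPM with vehicle and between 3994 and 4644 CPM with AOA, with Cd8a and Cd8b1 called higher and Cd3d, Cd3e and Cd3g not called. The 3 CD4 T cell markers summed to between 82.2 and 137 CPM with vehicle and to between 21.7 and 31.3 CPM with AOA, with Cd4 and Cd40lg called lower and 1 gene not called. The corresponding ranges were 12.6 to 16.6 and 22.6 to 30.7 CPM for 4 B cell markers, 55.2 to 66.5 and 4.18 to 7.77 CPM for 3 myeloid markers, and 145 to 308 and 128 to 213 CPM for 3 NK cell markers. Most of the NK sum was Eomes, at 151 ± 37.5 and 155 ± 41.6 CPM (SD, n = 3), which was not called. Klrb1c was called lower (log2 fold change -3.02, edgeR adjusted p = 0.00310), and Ncr1 was not tested. Of 6 listed stromal markers only Pecam1 was in the count table, and Col1a1, Col1a2, Col3a1, Pdgfra and Cdh5 were not. Pecam1 lay between 106 and 139 CPM with vehicle and between 39.3 and 54.7 CPM with AOA, and its cell source was not tested. Erythroid markers were not analysed here. The part of these differences in the results below was not tested.

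Of the 9 genes, 8 were called higher with AOA and Ccnd1 was not called, where 26.2% of all genes tested were called higher. For the same 8 genes every AOA library lay above every vehicle library, which held for 31.0% of all genes tested. The median log2 fold change of the 9 genes was 1.24, and single genes ranged from 0.31 for Ccnd1 to 3.05 for Ccne2. These 8 calls were also made without vehicle replicate 2, where the log2 fold changes of the 8 genes ran from 0.95 for Cdk2 to 3.22 for Ccne2, and without AOA replicate 1, where they ran from 0.79 for Ccnd2 to 2.75 for Ccne2. The changes fell into a graded order, with Ccne2 and Skp2 above the 98th percentile of all genes tested and Ccnd1 at the 66th.

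**Figure D1:**
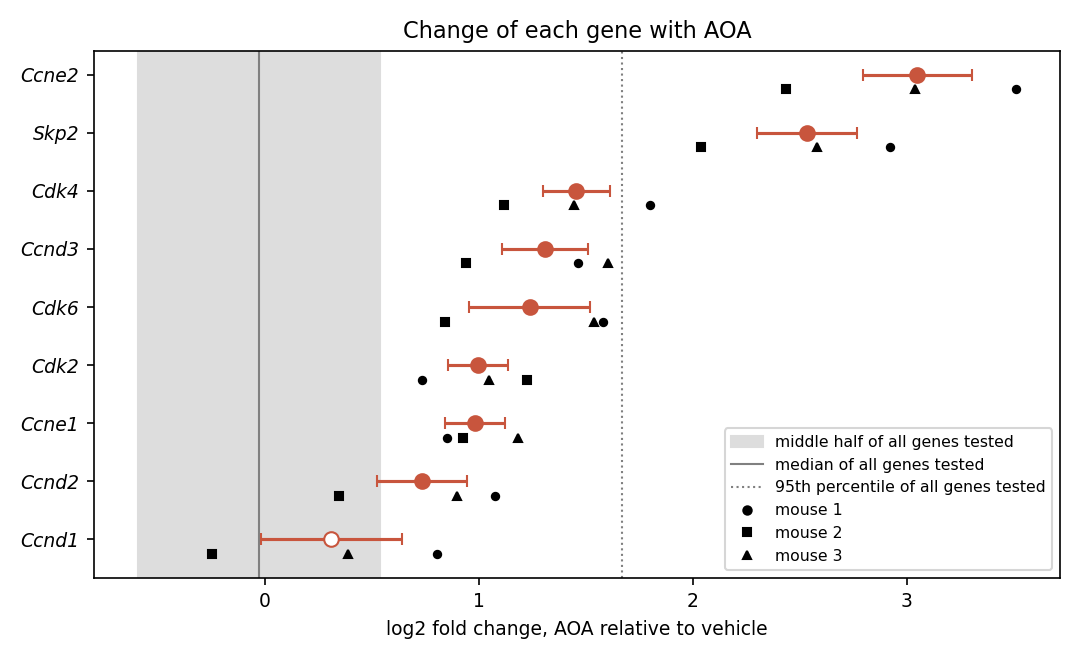
Log2 fold change of the 9 genes with AOA relative to vehicle (x axis), with the standard error as bars, filled circles for genes called and an open circle for Ccnd1, and the difference within each mouse as black symbols. The grey band, solid line and dotted line show the middle 50%, the median and the 95th percentile of all genes tested. Ccne2 (3.05) and Skp2 (2.53) lie past the dotted line at 1.67 in every mouse, and the lowest 2 genes are Ccnd2 (0.74) and Ccnd1 (0.31).

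Ccnd2 (Entrez gene 12444, chr6:127125162-127152188) encodes cyclin D2. Its level was 270.1, 482 and 353 CPM with vehicle, in replicate order, and 569, 613 and 657 CPM with AOA. The AOA libraries were all higher and closer together, and vehicle replicate 2 stood nearest to them. Its log2 fold change was 0.74 (SE 0.21, edgeR adjusted p = 0.0158), the smallest of the 8 genes called. This call was lost without vehicle replicate 1 (log2 fold change 0.58, adjusted p = 0.0545 by edgeR) and without AOA replicate 3 (0.69, adjusted p = 0.0527), whereas without vehicle replicate 2 the log2 fold change was 1.01.

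Ccnd3 (Entrez gene 12445, chr17:47505051-47599689) encodes cyclin D3, which thymocytes and peripheral T cells use. It was measured at 125, 205 and 146 CPM with vehicle and at 346, 394 and 444 CPM with AOA in replicates 1, 2 and 3. No AOA library came near the highest vehicle value, which was again that of replicate 2. Its log2 fold change was 1.31 (SE 0.20, edgeR adjusted p = 6.92e-04).

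Ccnd1 (Entrez gene 12443, chr7:144929931-144939831) encodes cyclin D1 and had few counts. Its raw counts were 14, 29 and 30 with vehicle and 44, 29 and 43 with AOA, and the 95% Poisson interval of the lowest, 14 counts, ran from 7.65 to 23.5. In CPM this was 1.11, 1.84 and 1.63 with vehicle and 2.02, 1.53 and 2.17 with AOA, so that the groups overlapped and mouse 2 had less with AOA than with vehicle. The log2 change of 0.31 (SE 0.33, edgeR adjusted p = 0.449) was smaller than its standard error, and a difference was not detectable at this depth.

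The balance of the D cyclins was examined within each library, where scaling between libraries plays no part. Per length, the log2 ratio of Ccnd2 to Ccnd3 was -0.25, -0.12 and -0.08 with vehicle, compared with -0.63, -0.71 and -0.79 in cells given AOA. The ratio was lower in all 3 AOA libraries, without overlap. Which of the 2 genes is more abundant depends on the length used, whereas the difference in the ratio does not. The difference was -0.56 (SE 0.07), with an exact two-sided permutation p = 0.1, the smallest that 3 against 3 libraries allow, and p = 0.175 after adjustment over the 7 ratios tested. Taken as differences within mice, this and the other ratios without overlap had an exact sign-flip p = 0.25, the smallest that 3 pairs allow. Expressed as shares of the summed D cyclin RPKM, Ccnd2 went from 47.3% ± 1.47 to 37.8% ± 1.24 and Ccnd3 from 52.4% ± 1.49 to 62.0% ± 1.25 (SD, n = 3), while Ccnd1 made up 0.301% ± 0.0342 and 0.180% ± 0.0340. With merged exon lengths of GENCODE vM21 in place of the deposited lengths, Ccnd2 was the larger share in both groups, at 67.8% ± 1.27 with vehicle and 59.0% ± 1.26 with AOA, and Ccnd3 rose from 31.6% ± 1.30 to 40.6% ± 1.28 (SD, n = 3). Relative to Ccnd3, Ccnd1 also differed, by -1.01 log2 units (SE 0.20), without overlap (exact permutation p = 0.1). Its 3 vehicle values were -7.52, -7.53 and -7.21 and its 3 AOA values -8.15, -8.73 and -8.41.

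Among the E cyclins the contrast was larger. Ccne1 (Entrez gene 12447, chr7:38097984-38107490), the cyclin E that predominated in vehicle cells, was at 38.4, 39.2 and 30.4 CPM with vehicle and at 69.4, 74.7 and 69.1 CPM with AOA. Its spread within each group was small beside the gap between the groups. This was a log2 fold change of 0.98 (SE 0.14, edgeR adjusted p = 4.95e-04).

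Ccne2 (Entrez gene 12448, chr4:11190433-11204779), the second E cyclin and like Ccne1 a known E2F target, had 7.62, 9.07 and 6.46 CPM with vehicle but 87.9, 49.5 and 53.9 CPM with AOA. AOA replicate 1 exceeded the other AOA libraries, and all 3 AOA values were more than 5 times the highest vehicle value. The log2 change of 3.05 (SE 0.25, edgeR adjusted p = 3.15e-05) corresponds to an 8.28-fold higher level. Within mice 1, 2 and 3 it rose by 3.51, 2.43 and 3.04 log2 units.

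The balance of the E cyclins differed between the groups. Ccne2 relative to Ccne1 stood at log2 ratios of -3.05, -2.83 and -2.95 with vehicle, compared with -0.38, -1.31 and -1.08 in cells given AOA. The increase was 2.02 (SE 0.29, exact two-sided permutation p = 0.1, adjusted 0.175), and it was 2.67, 1.52 and 1.87 in mice 1, 2 and 3. Ccne2 accounted for 11.5% ± 0.779 of the cyclin E transcripts per length with vehicle and for 34.8% ± 7.74 with AOA (SD, n = 3), where AOA replicate 1 had the highest share, 43.5%. Ccne1 was the more abundant E cyclin in every library, also with merged exon lengths, where the highest share of Ccne2 was 49.1%.

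Summed over paralogs, D cyclins went from 135 ± 36.8 to 281 ± 29.3 RPKM and E cyclins from 20.8 ± 2.86 to 56.1 ± 5.82 RPKM (SD, n = 3). E to D cyclins had log2 ratios of -2.22, -2.93 and -2.84 with vehicle and -2.01, -2.39 and -2.58 with AOA. These ranges overlapped. The difference of 0.34 (SE 0.28, exact permutation p = 0.3) lay between the SDs of the 2 groups, 0.39 with vehicle and 0.29 with AOA. It had the same sign in all 3 mice, and its exact sign-flip p of 0.25 equalled that of the ratios without overlap.

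**Figure D2:**
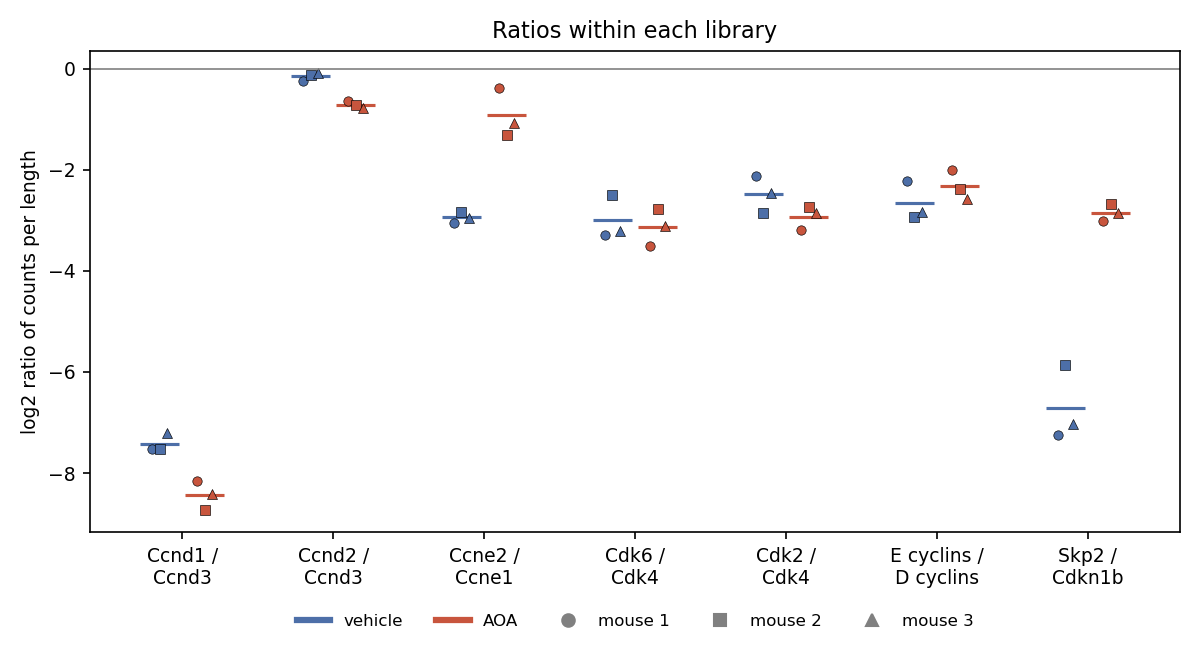
Log2 ratio of counts per length between genes (y axis) for 7 pairs or sums, with 1 symbol per library, shaped by mouse, and a line at each group's mean. AOA and vehicle do not overlap for Ccnd1/Ccnd3, Ccnd2/Ccnd3, Ccne2/Ccne1 and Skp2/Cdkn1b, and overlap for Cdk6/Cdk4, Cdk2/Cdk4 and E to D cyclins.

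All 3 kinases rose. Cdk4 (Entrez gene 12567, chr10:127063535-127067288), the more abundant D cyclin kinase here per length, had 109.8, 138 and 116 CPM with vehicle and 383, 301 and 315 CPM with AOA. The groups were well apart, with AOA replicate 1 highest. The log2 difference was 1.46 (SE 0.16, edgeR adjusted p = 1.16e-04).

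Cdk6 (Entrez gene 12571, chr5:3341004-3531008), the other D cyclin kinase, had 95.6, 210.3 and 107 CPM with vehicle and 286, 377 and 311 CPM with AOA. Mouse 2 had the highest level in both groups. It changed by 1.24 log2 units (SE 0.28, edgeR adjusted p = 0.00541), and by 1.71 without vehicle replicate 2.

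Cdk2 (Entrez gene 12566, chr10:128697938-128705051), the partner of cyclins E and A, had 45.4, 34.7 and 37.7 CPM with vehicle and 75.7, 81.2 and 78.1 CPM with AOA. The AOA libraries hardly differed from each other, and mouse 2 had the lowest vehicle and the highest AOA value. Its log2 fold change was 1.00 (SE 0.14, edgeR adjusted p = 4.22e-04).

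The ranges of the kinases' proportions overlapped between the groups. For Cdk6 to Cdk4 the log2 ratios were -3.30, -2.49 and -3.21 with vehicle and -3.52, -2.77 and -3.11 with AOA, a difference of -0.14 (SE 0.33, exact permutation p = 0.7) whose sign turned without vehicle replicate 2 (0.12) or AOA replicate 1 (0.06). For Cdk2 to Cdk4 they were -2.13, -2.85 and -2.47 with vehicle and -3.19, -2.74 and -2.86 with AOA, and the difference of -0.45 (SE 0.25, exact permutation p = 0.2) was positive in mouse 2 and negative in mice 1 and 3. It exceeded the SD within each group, 0.36 with vehicle and 0.23 with AOA, and the overlap rested on vehicle replicate 2. Per length Cdk4 made up 76.2% ± 1.24 of the 3 kinases' transcripts with vehicle and 80.2% ± 3.22 with AOA (SD, n = 3).

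The 250 bases before the start site of each kinase gene are shown, because they hold the E-box and E2F matches found when the promoters of these genes were searched for 3 motifs. Sequences are from RefSeq on GRCm38.p6, in the direction of the gene, and capitals mark matches to the E-box CACGTG, bound by MYC and related factors, in Cdk4 and Cdk6, and to an E2F motif in Cdk2. They lie at chr10:127063285-127063534 (plus strand), chr5:3343643-3343892 (plus strand) and chr10:128705052-128705301 (minus strand). The start site that RefSeq's promoter table gives for Cdk6 lies inside the gene span given above, which begins further upstream.
Cdk4: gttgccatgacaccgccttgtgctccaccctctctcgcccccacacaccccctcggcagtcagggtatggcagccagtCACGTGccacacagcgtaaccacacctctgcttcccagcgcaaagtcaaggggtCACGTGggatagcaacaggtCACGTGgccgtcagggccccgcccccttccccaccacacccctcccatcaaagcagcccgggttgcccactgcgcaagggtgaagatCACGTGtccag
Cdk6: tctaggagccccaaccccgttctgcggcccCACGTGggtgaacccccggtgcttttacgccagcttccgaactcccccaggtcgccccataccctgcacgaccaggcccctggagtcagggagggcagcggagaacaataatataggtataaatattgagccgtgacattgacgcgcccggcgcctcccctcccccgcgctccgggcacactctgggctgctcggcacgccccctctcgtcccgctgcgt
Cdk2: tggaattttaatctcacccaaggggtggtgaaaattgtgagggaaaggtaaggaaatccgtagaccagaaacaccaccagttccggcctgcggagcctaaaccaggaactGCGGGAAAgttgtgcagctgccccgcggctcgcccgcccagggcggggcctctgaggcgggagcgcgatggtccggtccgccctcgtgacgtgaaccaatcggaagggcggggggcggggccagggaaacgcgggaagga

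Windows of 250 bases before to 50 bases after the start site were available for 6 of the 9 genes, namely Ccnd3, Ccne1, Cdk2, Cdk4, Cdk6 and Skp2, with 2 start sites each for Ccnd3 and Skp2. They were searched on both strands for the E2F words TTTCCCGC, TTTCGCGC, TTTGCCGC and TTTGGCGC, for CACGTG, and for the STAT motif TTCNNNGAA. The Cdk4 window held 4 matches to CACGTG, at -172, -118, -98 and -11 from the start site. At least 1 match occurred in 7.15% of the 32851 promoter windows of the genome, and at least 4 in 8 windows, or 0.0244%. Cdk6 held 1 match at -220. The Cdk2 window held 1 E2F word (2.26% of windows), at -140, and the first Skp2 window held 1 STAT match (8.30% of windows). A match describes letters in the window and is not evidence of binding. Myc itself was at 179 ± 24.4 CPM with vehicle and 245 ± 27.8 CPM with AOA (SD, n = 3). This log2 change was 0.45 (SE 0.15, edgeR adjusted p = 0.0331), and this call was lost without vehicle replicate 1 or 3 or AOA replicate 2 or 3, with adjusted p from 0.0517 to 0.123.

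Skp2 (Entrez gene 27401, chr15:9111982-9155425) was among the least abundant of the 9 genes with vehicle and had the second largest change. Its raw counts were 31, 60 and 47 with vehicle and 422, 302 and 314 with AOA. In CPM it went from 2.46, 3.80 and 2.55 to 19.4, 16.0 and 15.8, with every AOA library at more than 4 times the highest vehicle library. It rose by 2.53 log2 units (SE 0.23, edgeR adjusted p = 5.21e-05), or 5.79-fold, and by 2.92, 2.04 and 2.58 in mice 1, 2 and 3.

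Cdkn1b, which encodes p27, the inhibitor whose destruction SKP2 directs, moved the other way at the transcript level. It was at 266, 157 and 238 CPM with vehicle and at 111, 72.6 and 81.5 CPM with AOA, without overlap. Its log2 fold change was -1.32 (SE 0.23, edgeR adjusted p = 0.00130). Skp2 relative to Cdkn1b went from log2 ratios of -7.24, -5.86 and -7.03 with vehicle to -3.02, -2.69 and -2.87 with AOA, a difference of 3.85 (SE 0.44, exact permutation p = 0.1, adjusted 0.175), the largest of the 7 ratios. Cks1b, the cofactor that SKP2 needs to recognise p27, was at 18.3, 28.3 and 24.0 CPM with vehicle and at 180.1, 135 and 134 CPM with AOA. Its log2 fold change was 2.67 (SE 0.20, edgeR adjusted p = 2.01e-05).

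Levels of the 9 genes relative to each other were compared as RPKM with the deposited lengths. With vehicle the order was Cdk4 (90.1 ± 11.2), Ccnd3 (70.3 ± 18.4), Ccnd2 (63.8 ± 18.5), Ccne1 (18.4 ± 2.50), Cdk2 (16.1 ± 2.27), Cdk6 (12.0 ± 5.48), Ccne2 (2.40 ± 0.406), Skp2 (0.861 ± 0.220) and Ccnd1 (0.402 ± 0.0986 RPKM, SD, n = 3). The first 3 genes overlapped their neighbours in range, as did Ccne1, Cdk2 and Cdk6, while Ccne2, Skp2 and Ccnd1 were each apart from the gene above. With AOA the order was the same, at 247 ± 32.7, 175 ± 21.7, 106 ± 7.62, 36.3 ± 1.60, 32.2 ± 1.15, 28.2 ± 4.08, 19.8 ± 6.54, 5.003 ± 0.593 and 0.503 ± 0.0878 RPKM (SD, n = 3). Here Cdk4, Ccnd3 and Ccnd2 no longer overlapped, and Ccne2 reached the range of Cdk6 in AOA replicate 1 (27.3 RPKM) but not in AOA replicates 2 and 3 (15.4 and 16.7 RPKM), against 24.8, 32.7 and 27.0 RPKM of Cdk6 in AOA replicates 1, 2 and 3. With merged exon lengths 4 of the 9 genes kept their rank in each group. Ccnd2 (39.1 ± 11.3) then stood beside Cdk4 (37.3 ± 4.62) with vehicle, and Cdk4 (102 ± 13.5), Ccnd2 (65.2 ± 4.67) and Ccnd3 (45.0 ± 5.58) led with AOA, in CPM per kilobase (SD, n = 3), while Skp2 and Ccnd1 stayed lowest in both groups. Against all genes tested, Cdk4 was at percentile 93.7 of level with vehicle and 97.7 with AOA, Ccne2 at 19.5 and 66.1, Skp2 at 9.10 and 32.7, and Ccnd1 at 4.32 and 7.99.

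**Figure D3:**
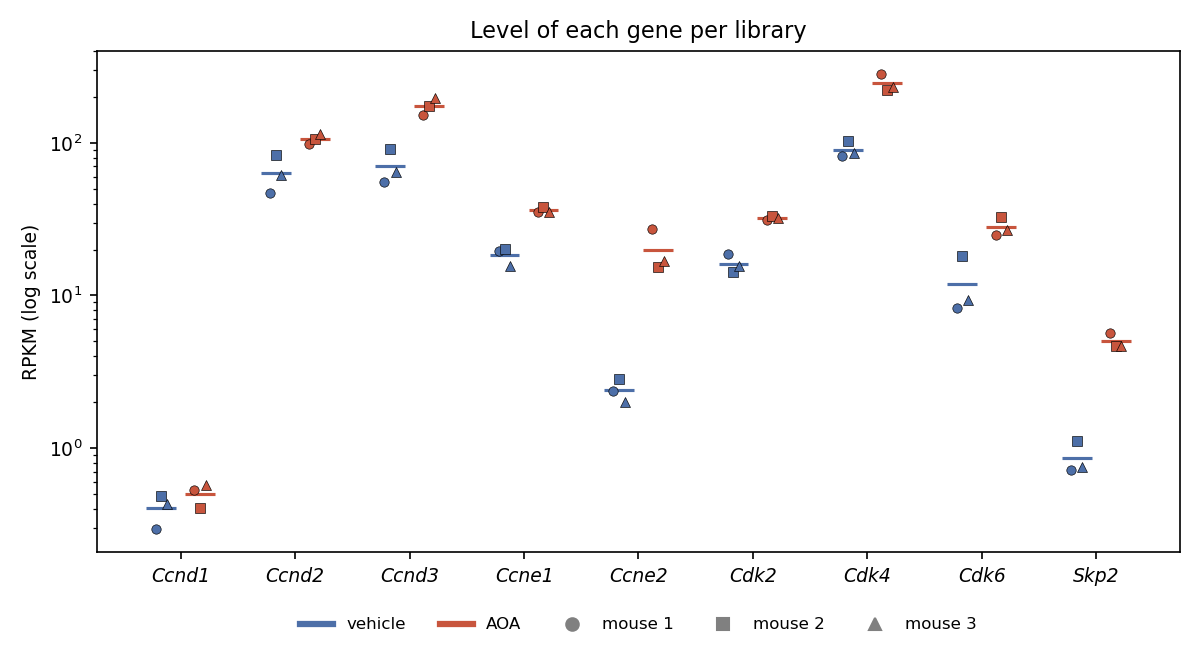
RPKM of the 9 genes on a log axis, with 1 symbol per library, blue for vehicle and red for AOA, shaped by mouse, and a line at each group's mean. The groups are apart for every gene except Ccnd1, and with the deposited lengths the order of the means, from Cdk4 to Ccnd1, is the same in both groups.

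Other genes of the pathway were read from lists by role. The counts below stand beside the 26.2% of all genes tested called higher and the 26.8% called lower. The 5 genes listed for S and M phase, 4 cyclins and the kinase Cdk1, were all called higher, with a median log2 fold change of 2.93 against 1.24 for the 9 G1 genes. Ccna2, the cyclin that takes over CDK2 in S phase, went from 58.0 ± 15.9 to 477 ± 38.3 CPM (SD, n = 3). It rose by 3.04 log2 units (SE 0.21, edgeR adjusted p = 1.51e-05), and Cdk1 and Ccnf followed at 2.94 and 2.93.

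Of the 13 genes for E2F and DP factors and pocket proteins, 9 were called higher and 4 were not called, with a median log2 fold change of 1.40. Tfdp2 was among those not called (-0.38), but was called lower without AOA replicate 2 (-0.55, edgeR adjusted p = 0.0372). Rbl2, the pocket protein p130, was also not called (-0.53, edgeR adjusted p = 0.0647). It was called lower in the fit with mouse as replicate block (-0.48, adjusted p = 0.0418), with DESeq2, and without vehicle replicate 3 or AOA replicate 2. Its vehicle libraries had 168, 294 and 169 CPM in replicate order, so that replicate 2 stood apart, and its AOA libraries 142, 154 and 141 CPM. E2f8 and E2f7, the atypical E2F repressors, and the activator E2f1 rose most, with log2 fold changes of 3.21, 2.76 and 2.70. E2f1 was at 5.40, 7.80 and 6.89 CPM with vehicle and at 42.4, 46.1 and 42.9 CPM with AOA. Rb1, which encodes the retinoblastoma protein, was at 92.2 ± 15.2 CPM with vehicle and 90.0 ± 11.5 CPM with AOA (SD, n = 3), a log2 difference of -0.04 (SE 0.16, edgeR adjusted p = 0.863) whose sign turned under 3 alternatives.

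Among 7 genes that activate, restrain or fold the kinases, 4 were called higher and 3 were not called. The kinases that restrain CDKs, Pkmyt1 and Wee1, had log2 fold changes of 1.92 and 1.55. Cdc25a, the phosphatase that activates CDK2, went from 24.5 ± 1.69 to 61.5 ± 8.97 CPM (SD, n = 3), a log2 rise of 1.33 (SE 0.15, edgeR adjusted p = 1.53e-04). Of 11 genes of ubiquitin ligases that act on G1 regulators, 8 were called higher and 3 were not called, with a median of 0.57. The call of Cdc34, a ubiquitin-conjugating enzyme (log2 fold change 0.55, edgeR adjusted p = 0.0442), was lost in 5 of the 6 fits that left out a library, with total counts, with a filter at 10 CPM and with the trend on gene length removed. E2f4, in the E2F list, lost its call in 4 of those 6 fits. Besides Cks1b, the largest changes there were those of Fbxo5 (2.78), an inhibitor of the anaphase-promoting complex, and Skp1 (0.98), the adapter that joins SKP2 to its cullin. The file lists Skp1 under its older symbol.

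The CDK inhibitors did not move as a group. Of the 6 analysed, 3 were called lower, 1 higher and 2 were not called, where 26.8% of all genes tested were called lower and 26.2% higher. Cdkn2c, an inhibitor of CDK4 and CDK6, went from 25.3, 25.1 and 31.9 CPM to 84.3, 77.1 and 104 CPM, a log2 rise of 1.69 (SE 0.17, edgeR adjusted p = 7.14e-05). Cdkn2b and Cdkn2a, of the same family, had log2 fold changes of -2.80 and -1.80. Both rested in size on vehicle replicate 2, which had 26.7 CPM of Cdkn2b against 3.97 and 5.48 CPM in vehicle replicates 1 and 3, and without it the log2 fold changes were -1.42 and -1.10, both still called. With a filter at 10 CPM in 3 libraries neither gene was tested, which left 1 inhibitor called lower. Cdkn1a, which encodes p21, was not called (log2 fold change -0.19, edgeR adjusted p = 0.733), with 56.4, 217 and 73.2 CPM in vehicle replicates 1, 2 and 3 and 81.3, 122 and 101 CPM with AOA. Without vehicle replicate 2 its direction turned and it was called higher (0.68, edgeR adjusted p = 0.0157).

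Upstream regulators of the D cyclins showed small changes. Of 10 genes, 2 were called higher (Akt1 at 0.63 and Myc at 0.45), 3 lower (Stat5b at -0.59, Foxp1 at -0.45 and Tob1 at -0.43) and 5 were not called, shares close to the 26.2% and 26.8% of all genes tested. Leaving out libraries singly, the calls of Stat5b and Tob1 were each lost in 3 of 6 cases and that of Foxp1 in 5. Calls were also gained, by Foxo1, lower without vehicle replicate 2 (-0.59, edgeR adjusted p = 0.0217), and by Gsk3b. Gsk3b was called higher without AOA replicate 1 (0.33, edgeR adjusted p = 0.0264) and with the trend on gene length removed (0.36, adjusted p = 0.0222). The Foxp1 call was also lost in the fit with mouse as replicate block (edgeR adjusted p = 0.0538) and with the trend on gene length removed (adjusted p = 0.10005). Cyclins and CDKs best known for transcription or other roles were mostly lower or not called. Of 25 tested, 11 were called lower and 14 were not called, with a median of -0.28, and among those with at least 10 CPM the largest falls were those of Ccnl2 (-1.44), a cyclin of splicing and transcription, Ccndbp1 (-0.95), a cyclin D binding protein, and Ccni (-0.92). Ccnj, below that level at 9.51 CPM with vehicle, had a log2 fold change of -1.19. Ccng1, a cyclin G, had a log2 fold change of 0.69 and was not called, but was called higher in the fit with mouse as replicate block (0.80, edgeR adjusted p = 0.0396), with DESeq2 and limma, and without vehicle replicate 2. Cdk14, not called at -0.44, turned direction without vehicle replicate 2 and was called higher (1.22, edgeR adjusted p = 0.0283). The number called lower was 7 without vehicle replicate 1 and 7 without AOA replicate 2.

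**Figure D4:**
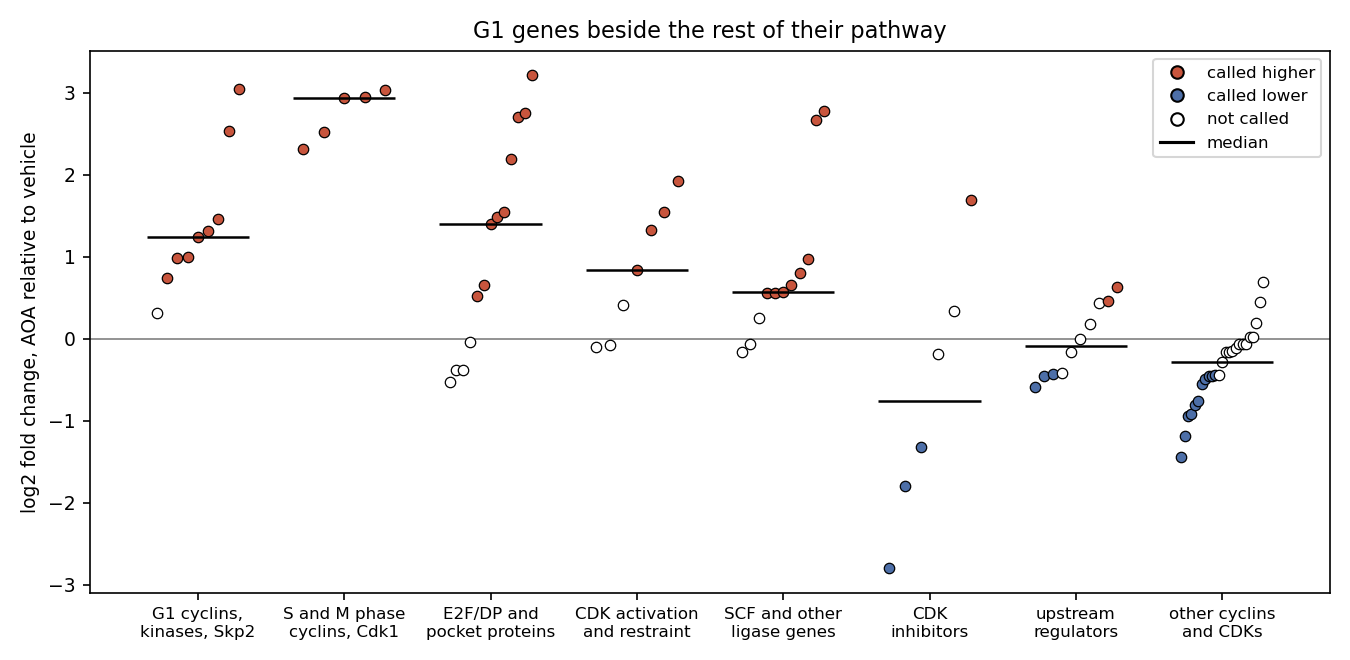
Log2 fold change of each tested gene with AOA relative to vehicle (y axis), grouped by role, with red for called higher, blue for called lower, white for not called, and a line at the median. The medians run from 2.93 for S and M phase cyclins through 1.24 for the 9 G1 genes to -0.75 for the CDK inhibitors.

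Likeness between genes was measured as the root-mean-square difference of gene-centred log2 CPM over the 6 libraries, where genes with a mean of at least 10 CPM were candidates. The genes nearest to Skp2 were Tk1 (0.06) and Rfc5 (0.08), and those nearest to Ccne2 were Cenpi (0.13) and Trip13 (0.22). For the kinases these were Uba2 (0.04) and Ilf2 (0.05) for Cdk4, Ergic1 (0.09) and Heatr1 (0.11) for Cdk6, and Sass6 (0.08) and Snrpa (0.09) for Cdk2. For the cyclins they were Ggt1 (0.09) and Scly (0.10) for Ccnd1, Praf2 (0.05) and Impa1 (0.06) for Ccnd2, Lrpprc (0.07) and Nol11 (0.08) for Ccnd3, and Srsf1 (0.05) and Gtf2h4 (0.06) for Ccne1. Among the 9 genes themselves the closest pair was Ccne1 and Cdk2 (0.15). At least 23 of the 8761 candidates were closer to any of the 8 called genes than its nearest partner among the 9.

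Reads of some of these genes can also arise from a neighbour. In the GENCODE vM21 models of GRCm38, exons of Ccnd1, Ccne2 and Cdk4 share 23.4%, 17.4% and 19.7% of their bases with a gene on the opposite strand, namely LTO1, Ints8 and Tspan31. Those of Ccnd2, Ccnd3, Cdk6 and Cdk2 share 7.86%, 4.11%, 2.63% and 0.547%, and Ccne1 and Skp2 share none. Libraries were stranded, but the sources used here do not say whether the counting used the strand. Ints8 had 47.0 ± 4.88 CPM with vehicle and 78.0 ± 8.12 CPM with AOA, Tspan31 93.4 ± 28.2 and 115 ± 12.0 CPM, and LTO1 19.0 ± 1.87 and 14.03 ± 0.868 CPM (SD, n = 3). Their log2 fold changes were 0.73, 0.30 and -0.44. Bysl, which shares exon bases with Ccnd3, had 44.6 ± 18.9 and 117 ± 14.6 CPM (SD, n = 3), and its log2 fold change of 1.40 (SE 0.26, edgeR adjusted p = 0.00194) was slightly above that of Ccnd3. Pmel, beside Cdk2, and 9330179D12Rik, beside Ccnd2, had log2 fold changes of -1.25 and -1.46. The part of these neighbours' reads in the counts of the G1 genes was not tested.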

How the data were processed

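The authors made stranded libraries from messenger RNA, mapped paired-end reads with STAR under default settings and counted uniquely mapped reads. The deposited values are raw counts per gene, with Entrez number, symbol and gene length. The submitters' processing notes also name bcl2fastq, featureCounts, DESeq2 and mm10, whereas the sources used here give neither the annotation nor a gene filter.

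Counts were tested with edgeR 4.0.16 in R 4.3.3 (filterByExpr with a minimum count of 10, TMM, robust quasi-likelihood, Benjamini-Hochberg over all genes, threshold 0.05), and standard errors are the log2 fold change over the root of F. The authors' DESeq2 (here 1.42.0) and limma 3.58.1 were alternatives. Log2 CPM used a prior count of 2, and ratios between genes added 0.5 counts to each gene. Intervals cover counting error only.

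The labels pair the groups by mouse. Deviations from group means correlated across 11759 genes with r of 0.0868, 0.189 and 0.194 within mice 1, 2 and 3. No pair of replicates agreed within sampling noise.

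The members, lists and motifs were chosen with earlier results of these data known. Named beside the members were up to 3 called genes per list and direction whose higher group averaged 10 CPM or more, and Cdkn1b, Cks1b, Cdc25a, Rb1, E2f1 and Ccna2 whatever their result. LTO1, Ints8, Tspan31 and Bysl, Pmel, 9330179D12Rik, Rbl2, Ccng1, Cdk14, Cdkn1a, Cdc34, E2f4, Ccnj and Cdkn2 values by library were added after their values were seen. So were the values of Tfdp2, Foxo1 and Gsk3b and of the single NK cell markers.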

Additional observations from a re-analysis of the deposited data

How the results depend on the processing

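The 9 genes were recomputed with DESeq2, limma, other scalings and filters, gene length trends removed, the mouse as a replicate block, and each library left out. Of 125 such values 123 kept their direction and their side of the threshold, and the exceptions were the 2 lost calls of Ccnd2 given above. The number called higher was 7 to 8 with each library left out and 8 otherwise, except that 5 were left when a change of at least 1 log2 unit was also required. That requirement also reduced the genes called from 6233 to 3081, those higher to 1418, those lower to 1663 and the pathway list genes from 46 to 23, by construction. With the replicate block 6292 genes and all 8 of the G1 genes were called. Among the genes of the lists, the block changed no call other than those of Foxp1, Rbl2 and Ccng1. For Ccnd1, filtering at 10 CPM in 3 libraries left no value. The difference between AOA and vehicle in the log2 ratio of Cdk6 to Cdk4 lay between -0.32 and 0.12 with libraries left out, and the differences in the other 6 ratios kept their sign. The log2 fold change of Rb1 was 0.0496 with length trends removed and lay between -0.14 and 0.14 with libraries left out. With merged exon lengths, chosen after seeing the data, 4 of 9 genes kept their rank by level with vehicle and 4 with AOA. The causes of these changes were not tested. At this depth Ccnd1, with 14 to 44 counts per library, is the gene whose change is least well determined.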
